A study of Mus musculus with 36 samples.

Results

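The 39 genes described here are the keratins and claudins found in RNA-seq of mouse cells on the way from fibroblast to induced pluripotent stem cell. They were chosen by symbol alone, Krt or Cldn followed by a number and no further letter, which leaves out genes such as Krt6a and Krt6b. Of 21442 genes with deposited counts, 39 had such a symbol, 26 keratins and 13 claudins. The GENCODE annotation of the same genome build holds 72 protein-coding genes with such symbols, and the other 33 were not analysed here. By textbook role they fell into 5 keratins of simple epithelia, 11 of stratified epithelia, 5 of hair and hair follicle and 5 others, and into 4 claudins of simple epithelia, 2 channel-forming claudins, single claudins known from epidermal barrier, endothelium and myelin, and 4 others.

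The 36 libraries formed 12 groups of 3, from 6 stages and 2 genotypes, Zfp266 KO and the control named WT here. MEFs are mouse embryonic fibroblasts taken from E12.5 chimeric embryos, made by morula aggregation with Cas9 TNG MKOS embryonic stem cells of strain 129 background. These stem cells carry Cas9, a Nanog-GFP reporter and a doxycycline-inducible cassette of Myc, Klf4, Oct4 and Sox2 with mOrange. The host embryos came from B6CBAF1 females, and the share of host cells in the MEF libraries is not given. A lentivirus brought either a non-targeting guide RNA (WT) or a guide RNA to Zfp266 (KO) into these MEFs, so that the KO libraries of MEFs and of reprogramming are populations of edited cells and not clones. MEF libraries were made 96 h after transduction, unsorted and without doxycycline. For D3, D5 and D7 (days 3, 5 and 7 of reprogramming) cells of both genotypes were transduced 24 h earlier, mixed with wild-type 129 MEFs, grown in ESC medium with 300 ng/ml doxycycline and 10 µg/ml vitamin C, and sorted for mOrange, which marks cells that express the cassette. iPS libraries came from Nanog-GFP+ cells of D15 that were expanded as single clones under puromycin without doxycycline, 3 clones a genotype. The paper used clone J of the Cas9 TNG MKOS line for its later work, and ESC KO cells are single-cell clones made from it. ESC WT is taken here as that line, though its origin is not stated for the libraries. Nor is it stated whether the 3 ESC KO libraries are different clones. Apart from any host cells in the unsorted MEF libraries, all groups therefore carry Cas9 and the cassette. The control MEF-derived groups carry a guide RNA too.

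Keratins are the intermediate filament proteins of epithelia. A filament is built from pairs of an acidic type I and a basic type II keratin, and tissues use typical pairs: Krt8 with Krt18 in single-layered epithelia and in the first epithelium of the embryo, Krt5 with Krt14 in the basal layer of stratified epithelia, Krt1 with Krt10 in the layers above, and Krt16 and Krt17 in hair follicles and in wounded or activated epidermis. Claudins are membrane proteins that form the strands of tight junctions and set which ions pass between cells. Fibroblasts lack such junctions, and during factor-driven reprogramming they go through a mesenchymal-to-epithelial transition in which epithelial junction genes are switched on.

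Total counts were 19224103 to 39610939 a library, and a gene without a read could still have had up to 2.31 to 5.22 normalised counts, depending on the library (3 reads, counting error only). Levels are counts divided by the library's size factor (normalised counts), given in the order of replicates 1, 2 and 3, with mean ± SD over n = 3 where a mean is given. A gene is called changed at an FDR below 0.05 and a log2 fold change (log2FC) beyond 1 in either direction, by DESeq2's Wald test over all genes. The labels do not say whether replicates of MEFs and of reprogramming came from separate embryos or transductions. The spread between these libraries, which p-values measure, may thus be partly technical. In the fit over all libraries each gene had 1 estimate of spread for all 12 groups. A p-value at any stage therefore also carries the spread of the other stages. The Zfp266 transcript itself stayed between 1266 and 3293 normalised counts in all 36 libraries. Its log2FC between KO and WT was -0.39 (iPS, FDR = 9.95e-06) to 0.32 (D3, FDR = 0.00883), so its level does not check the edit. The paper reports other checks, the frequency of indel mutations in the KO MEF samples and genotyping of the KO iPS and ESC clones. Of 7 fibroblast markers all 7 were expressed in MEFs (sums of 278376 to 363881 normalised counts), and the sum of 7 pluripotency markers was 57.6 to 79.5 in MEFs and 104921 to 140694 in iPS and ESC, so the groups carried the markers of their labels. A pair of libraries stood apart in the genes of this report, MEF KO replicate 3 and iPS KO replicate 3, and results that touch them are given with and without them. Over all genes MEF KO replicate 3 was the farthest from its group. The variance between replicates was 99.2 to 103 times the counting variance in pairs with it, against 4.38 times in the pair without it. D3 WT replicate 2 (38.0 to 47.6 times) and D7 WT replicate 1 (42.3 to 44.0 times) also stood apart from their groups. The pairs without them had 8.52 and 6.02 times the counting variance.

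Most keratins, and a smaller part of the claudins, were highest in the middle of reprogramming. For all genes, neither the share that was highest there nor the shares at the count levels given next were counted. Among the 6 WT stages 25 of 39 members (20 keratins and 5 claudins) had their highest mean at D3, D5 or D7, against 9 in MEF, 2 in iPS and 3 in ESC. The number of members with a mean of at least 10 normalised counts went from 17 in MEF WT to 29 at D3, 35 at D5 and 30 at D7, and was 13 in iPS WT and 14 in ESC WT. The number with a mean of at least 1000 was 3 in MEF WT, 7 at D3, 9 at D5, 11 at D7 and 1 in both iPS WT and ESC WT. No read was found in any of the 3 libraries for 7 members in MEF WT, 1 at D3, 8 in iPS WT and 7 in ESC WT. In such bulk samples fewer cells of a kind and less RNA per cell cannot be told apart, and MEFs were not sorted while D3 to D7 cells were.

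**Figure D1:**
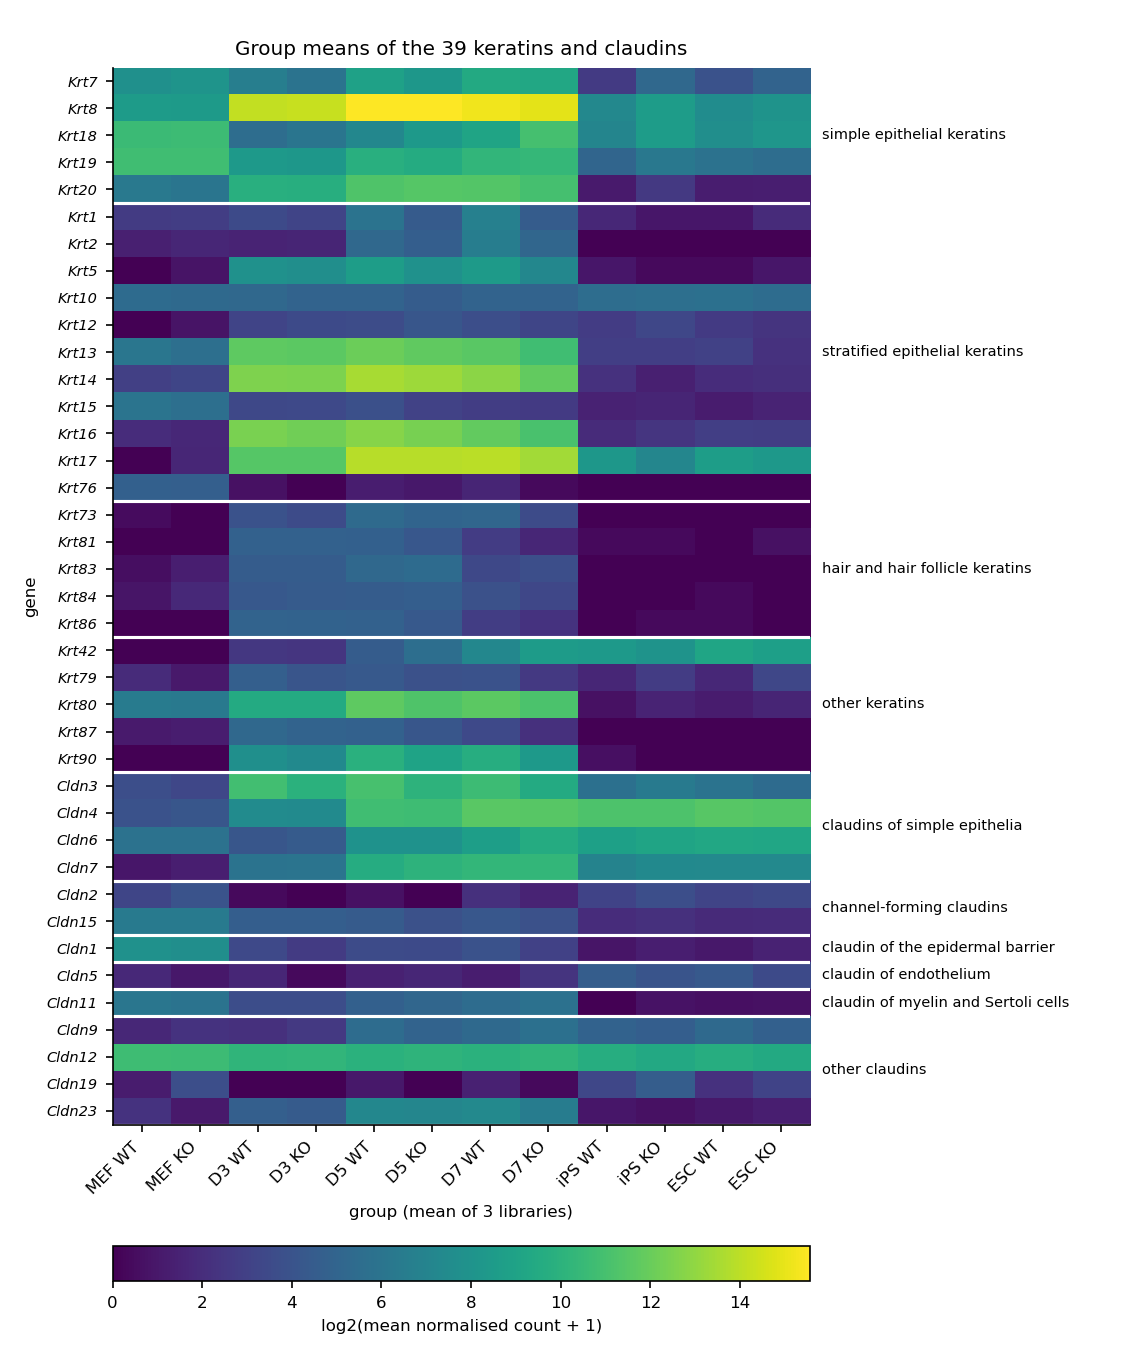
Heat map of the 39 members (rows, grouped by role) in the 12 groups (columns), coloured by log2 of the mean normalised count of 3 libraries plus 1. Krt8 was the brightest row at D3, D5 and D7, with a mean of 46545 at D5 WT, and Krt2, Krt73 and Krt83 were without a read in iPS WT.

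To compare genes with each other, normalised counts were divided by exon length in kilobases and summed over the 26 keratins. The length was that of all annotated exons of a gene merged, from 1437 bases for Krt18 to 7049 for Krt7. Where not all annotated exons are in use, a level per kilobase comes out too low. This keratin total per kilobase was 2435 ± 142 in MEF WT, 20883 ± 4603 at D3, 50022 ± 3656 at D5, 41585 ± 5759 at D7, 606 ± 240 in iPS WT and 901 ± 43.9 in ESC WT. Simple-epithelial keratins made up 94.8% ± 0.445 of it in MEF WT, 48.0% ± 3.52 at D3, 51.5% ± 2.46 at D5, 53.2% ± 6.49 at D7, 32.2% ± 3.93 in iPS WT and 30.2% ± 2.40 in ESC WT. The leading genes differed by stage. In MEF WT Krt18 (44.5%) and Krt19 (39.6%) led, with overlapping levels per kilobase, ahead of Krt8 (7.68%). At D3 Krt8 was 44.7% of the total, followed by Krt14 (16.5%) and Krt16 (16.3%), whose levels per kilobase overlapped. By D7 the order was Krt8 (47.3%) and then Krt17 (24.5%). ESC WT was led by Krt42 (36.3%) and Krt17 (29.2%), ahead of Krt18 (15.8%) and Krt8 (10.6%).

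The balance of the partner types moved with the stage as well. Type I keratins summed per kilobase were 8.85 ± 0.552 times type II in MEF WT, 1.17 ± 0.190 times at D3, 1.01 ± 0.122 at D5, 1.04 ± 0.264 at D7, 6.55 ± 1.44 in iPS WT and 8.39 ± 1.79 in ESC WT. The sums held 11 type I and 13 type II members, without Krt87 and Krt90 or genes outside the symbol rule such as Krt6a and Krt6b. Within these sums type I transcripts outnumbered type II in fibroblasts and in pluripotent cells. The types were near balance from D3 to D7, the ranges of the 3 reprogramming days lying below those of the other 3 stages. The classical pair did not follow that balance. Per kilobase, Krt8 was 0.173 ± 0.0192 times Krt18 in MEF WT, 296 ± 60.0 times at D3, 235 ± 31.8 times at D5, 52.4 ± 9.23 times at D7, 0.839 ± 0.192 times in iPS WT and 0.666 ± 0.120 times in ESC WT.

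**Figure D2:**
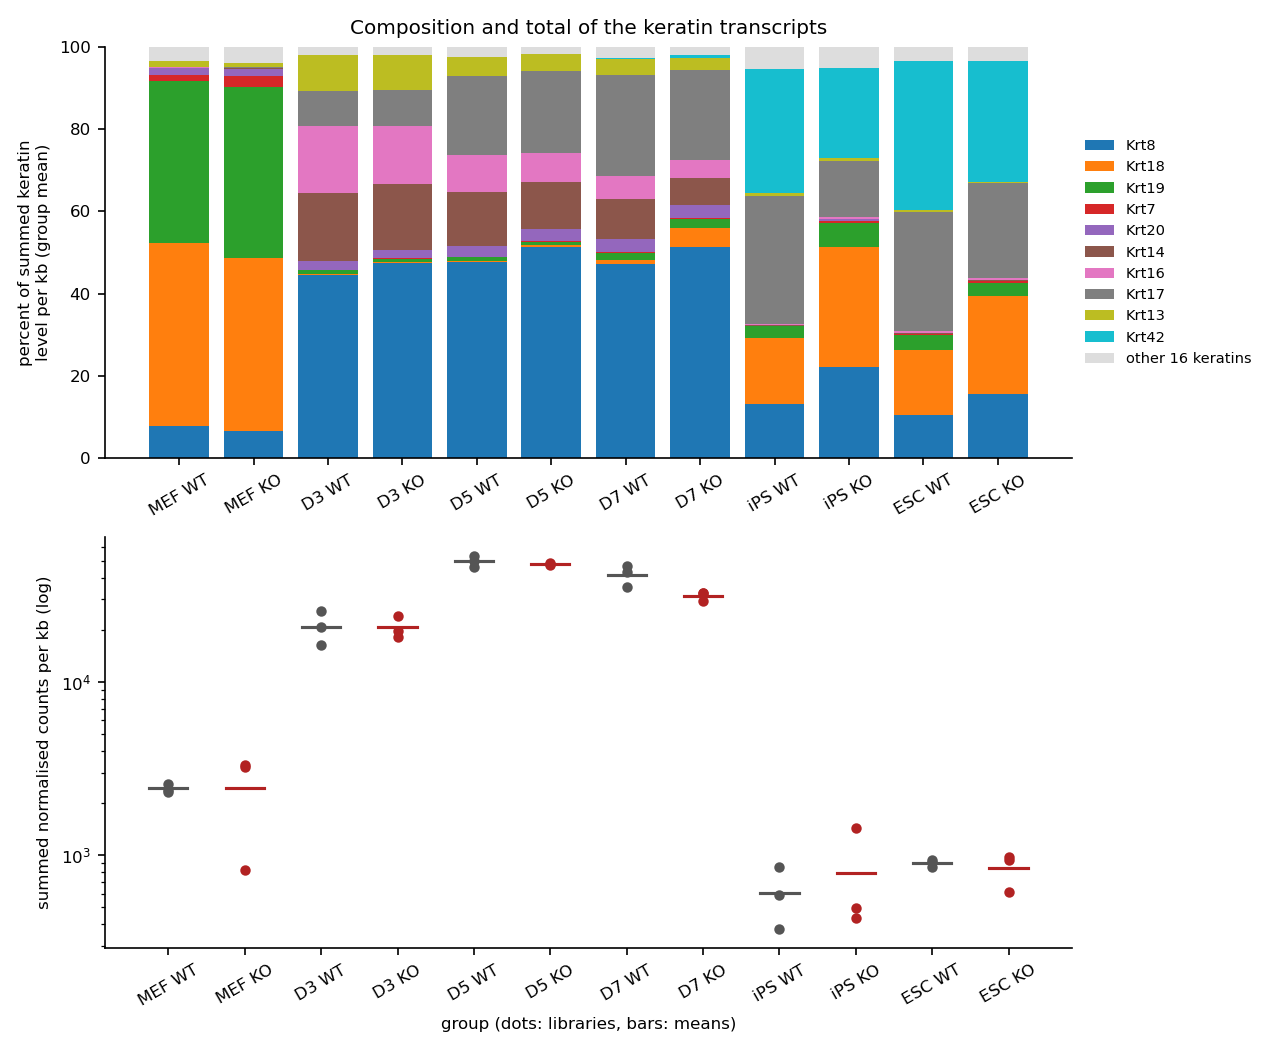
Upper plot: the mean share (percent) of each of 10 keratins in the summed keratin level per kilobase, for the 12 groups, with the other 16 keratins in light grey. Lower plot: that sum in each library (dots, log axis) with group means (bars), which for WT ran from 606 in iPS to 50022 at D5.

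Krt8 lies on chromosome 15 (GRCm38, 101996698 to 102004482, minus strand) and Krt18 next to it (102028180 to 102032027, plus strand), with 23697 bases between the genes. Their promoters, as the bases before the first annotated exon base within 250 bases of the RefSeq start (RefSeq, GRCm38.p6), are shown because this neighbouring pair was measured at opposite levels. Both are written 5′ to 3′. Capitals mark matches to the KLF-type motif CCNCNCCC on either strand, Klf4 being a factor of the cassette, and neither stretch held the AP-1 motif TGANTCA, the GC box GGGCGG or the TATA box TATAAA.
Krt8, chr15:102004483-102004592, minus strand: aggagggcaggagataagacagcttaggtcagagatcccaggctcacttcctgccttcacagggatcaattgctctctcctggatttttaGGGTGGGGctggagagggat
Krt18, chr15:102027966-102028179, plus strand: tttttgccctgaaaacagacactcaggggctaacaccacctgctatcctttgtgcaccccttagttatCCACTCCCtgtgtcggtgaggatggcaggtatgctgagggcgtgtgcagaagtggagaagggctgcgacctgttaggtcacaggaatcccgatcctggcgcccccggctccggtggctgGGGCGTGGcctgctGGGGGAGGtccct
Over the 27 members that had a promoter of 250 bases in the RefSeq table, 16 (59.3%) held the KLF-type motif, against 46.2% of all 32536 promoters of that length. A TATA box was present in 7 members (25.9%) against 12.3% of all, a GC box in 8 (29.6%) against 33.0%, and the AP-1 motif in 3 (11.1%) against 6.73%. The GC box and the KLF-type motif can overlap, and a match of letters is a description, not a site.

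Simple-epithelial keratins split when reprogramming began. Between MEF WT and D3 WT 31 of 39 members were called (22 higher and 9 lower), in a comparison that called 44.9% of all 21436 genes tested (19.5% higher, 25.4% lower). The median log2FC of the members was 3.18 and that of all genes tested -0.01. Of the 5 simple keratins Krt8 and Krt20 rose, Krt18 and Krt19 fell, and Krt7 did not pass the test. Krt8, the type II keratin of simple epithelia, was at 351, 323 and 429 in MEF WT and at 19112, 14919 and 20168 at D3, a 49.1-fold rise (log2FC 5.62, SE 0.44, FDR = 4.30e-37). Krt18, its type I partner, was at 1604, 1456 and 1614 in MEF WT and at 61.4, 32.0 and 46.5 at D3, which was 33.4-fold lower (log2FC -5.06, SE 0.53, FDR = 3.46e-21). The MEF and D3 libraries of both genes were far from overlapping. Krt19, a type I keratin of many glands and ducts, was at 1687, 1748 and 1936 in MEF WT and at 411, 288 and 321 at D3, 5.27-fold lower (FDR = 3.17e-11).

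Krt20, a type I keratin known from intestinal epithelium, was at 80.0, 71.2 and 76.4 in MEF WT and at 643, 729 and 1380 at D3, 12.1-fold higher (FDR = 2.50e-12). Krt7, the type II keratin of glands and ducts, was at 202, 224 and 257 in MEF WT and at 141, 64.0 and 89.2 at D3 (log2FC -1.21, SE 0.58, FDR = 0.0504), without overlap between the groups. Among all genes ranked by normalised count, Krt8 stood at place 9813 in MEF WT, 220 at D3, 30 at D5 and 47 at D7, and at place 11216 in iPS WT and 10768 in ESC WT. Part of the Krt8 transcript is repeated elsewhere: 23.5% of its 75-base windows also occur in Krt8-ps or Gm36026, so its count depends on how such reads were assigned, while Krt18, Krt19 and Krt20 share no window with another gene.

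All 5 simple keratins rose from D3 to D5, in a step where 17 of 39 members were called, each of them higher, against 6.77% of all genes tested (4.94% higher, 1.84% lower). The median log2FC was 1.10 over the members and 0.00 over all genes tested. Krt8 reached 46454, 46104 and 47078 at D5, 2.58-fold above D3 (FDR = 0.0096). Krt18 came to 130, 169 and 143 (3.15-fold, FDR = 0.0104), still below each MEF library. With 1 library left out, the calls of Krt7 and Krt19 were kept, that of Krt8 was lost without D3 WT replicate 2 (FDR = 0.0505), that of Krt18 without D3 WT replicate 2 (FDR = 0.0623) or D5 WT replicate 2 (FDR = 0.0503), and that of Krt20 without D3 WT replicate 1 or 2 or D5 WT replicate 2 or 3 (FDR of 0.0519 to 0.165). From D5 to D7, where 7 members were called (3 higher, 4 lower) against 5.81% of all genes tested (4.74% higher, 1.07% lower), Krt18 rose again to 458, 616 and 548 (3.67-fold, FDR = 0.00257), while Krt8 was at 38218, 35929 and 39874 (log2FC -0.29, FDR = 0.690). Without D5 WT replicate 2, 4 members were called between D5 and D7.

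In the step to pluripotent clones most keratins went down, with 23 of 26 called lower, against 6 of 13 claudins. Between D7 WT and iPS WT 32 of 39 members were called, 3 higher and 29 lower, against 45% of all genes tested (20% higher, 25% lower), with a median log2FC of -5.21 over the members and 0.01 over all genes. All 5 simple keratins fell. Krt8 was at 132, 123 and 193 in iPS WT, 254-fold below D7 (FDR = 4.68e-73), and Krt18 at 148, 87.0 and 173, 3.99-fold below D7 (FDR = 0.00022). Krt20 (0.864, 0 and 2.78) and Krt7 (3.45, 1.72 and 10.2) came close to or under the level that 3 reads give, and Krt19 was at 11.2, 25.8 and 61.2. ESC WT libraries were similar in level, with Krt8 at 147, 179 and 235 and Krt18 at 182, 219 and 215.

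**Figure D3:**
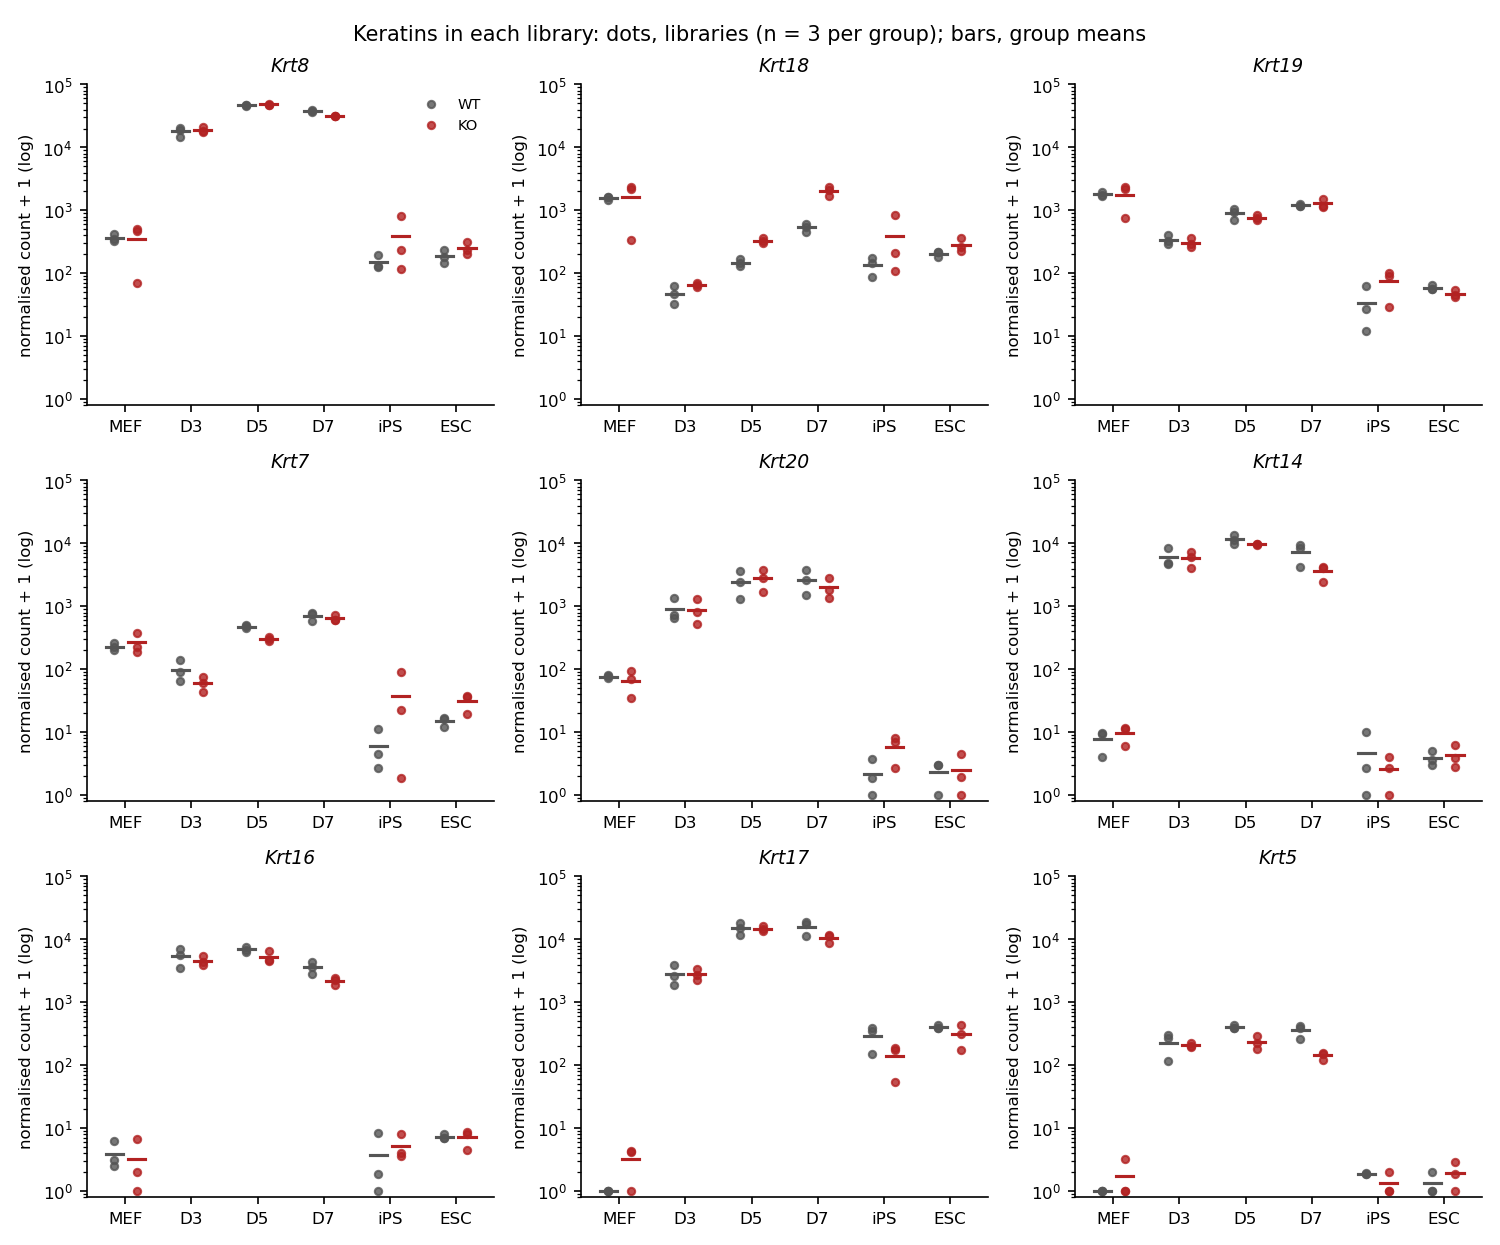
Normalised counts plus 1 (log axis) of 9 keratins by stage, each dot 1 library, grey for WT and red for KO, bars for group means (n = 3). Krt8 rose from 368 in MEF WT to 18066 at D3 while Krt18 went from 1558 to 46.7, and Krt5, Krt14, Krt16 and Krt17 were high from D3 to D7 and at most 408 on average in the WT groups of the other stages.

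Keratins of stratified epithelia made up the other part of the keratin level from D3 to D7, although MEFs hardly expressed them. At D3 8 of 11 were called (6 higher and 2 lower). Krt14, the type I keratin of basal epidermis, was at 8.70, 3.03 and 8.49 in MEF WT and at 4788, 4952 and 8570 at D3, 894-fold higher (FDR = 9.19e-74). Krt5, its type II partner, had no read in the 3 MEF WT libraries and was at 268, 118 and 302 at D3, at least 53.2-fold higher. Per kilobase the partners were far from equal: Krt14 made up 16.5% of the keratin level at D3 and Krt5 0.485%.

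Krt16 and Krt17, type I keratins of activated epidermis and hair follicle, were among the steepest. Krt16 went from 5.22, 1.51 and 2.12 to 5647, 3503 and 7169 (1965-fold, FDR = 1.16e-65), and Krt17 from no read in MEF WT to 2580, 1885 and 3883, at least 645-fold higher. Krt13, a type I keratin of mucosal stratified epithelium such as the oesophagus, went from 59.1, 63.6 and 81.7 to 3448, 2954 and 3408 (47.6-fold, FDR = 1.91e-70). Reads of Krt16 and Krt14 can be confused in part, since 28.9% of the 75-base windows of Krt16 also occur in Krt14 or Gm11597 and 5.71% of those of Krt14 in other genes; Krt17 shares none.

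The suprabasal keratins took another course. Krt10, the type I keratin of the layers above the basal one, was nearly level throughout, with WT means of 42.5 in MEF, 36.8 at D3, 30.5 at D5, 29.8 at D7, 46.9 in iPS and 52.8 in ESC, and it was called in none of the 6 WT steps. Krt1, its type II partner, was at 13.8, 9.0 and 7.75 at D3, at 67.0, 63.0 and 48.9 at D5 (5.85-fold, FDR = 0.000914) and at 72, 196 and 56.6 at D7. Krt2, a keratin of the upper epidermis, was at 1.83, 2.0 and 1.94 at D3 and at 36.9, 28.9 and 47.9 at D5 (19.7-fold, FDR = 3.29e-07), then at 52.7, 141 and 93.6 at D7 (2.53-fold, FDR = 0.0271). That last call was lost without D5 WT replicate 1 or 2 or D7 WT replicate 2 or 3 (FDR of 0.0789 to 0.219). Krt15, a basal and bulge keratin, went the opposite way, from 43.5, 77.2 and 63.7 in MEF WT to 11.9, 8.0 and 8.72 at D3 (6.44-fold lower, FDR = 6.57e-07).

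Krt17 still rose after D3, to 11816, 15226 and 17954 at D5 (5.39-fold, FDR = 2.49e-08) and 11213, 17659 and 19109 at D7. Krt5 was at 387, 390 and 430 at D5 and at 258, 394 and 426 at D7, and Krt14 at 9833, 11399 and 13705 and then at 4243, 8346 and 9556, neither called between D3 and D5 or D5 and D7. In the step to iPS WT 9 of the 11 stratified keratins fell and none was called higher, the calls of the low Krt15 and Krt76 being lost in 6 and 7 of 11 alternatives. Krt14 was then at 1.73, 0 and 9.28 and Krt5 at 0.864, 0.861 and 0.928. Krt17 fell as well but kept a higher level, with 347, 148 and 392 in iPS WT and 391, 441 and 391 in ESC WT. The ESC WT level was at least 94.5-fold above MEF WT, where Krt17 had no read.

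Hair and other keratins joined the rise at D3 at lower levels. All 5 hair keratins and all 5 other keratins were called higher at D3. The hair keratins Krt73, Krt81, Krt83, Krt84 and Krt86 had D3 means of 14.4 to 30.1, and where MEF WT had no read the rise was at least 6.44-fold for Krt81 and at least 6.97-fold for Krt86. By D7 Krt81, Krt83 and Krt86 had fallen 3.88-fold to 4.60-fold from D5, together with Krt87 (2.80-fold), and no hair keratin had a mean above 0.3 in iPS WT. Among the hair and other keratins, reads of Krt81, Krt86 and Krt87 are the least certain, as 30.7%, 33.5% and 22.4% of their windows occur in another gene.

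Krt80, a type II keratin of many differentiating epithelia, went from 103, 77.2 and 83.8 in MEF WT to 841, 609 and 779 at D3 (8.52-fold, FDR = 6.34e-69), then to 2834, 3410 and 3741 at D5, and was at 0, 0 and 1.86 in iPS WT. Krt90, named after its values were seen, had no read in MEF WT and was at 233, 99.0 and 305 at D3, at least 49.2-fold higher, and at 586, 1023 and 1216 at D5. Krt42, a type I keratin, was the only keratin called higher in all 4 WT steps from MEF to iPS. It had no read in MEF WT, 4.58, 4.0 and 5.81 at D3, 19.4, 18.6 and 29.1 at D5 (4.65-fold, FDR = 0.000297), 99.4, 199 and 139 at D7 (6.53-fold, FDR = 9.41e-11), and 289, 181 and 534 in iPS WT (2.29-fold, FDR = 0.000755). The last of these calls was lost without D7 WT replicate 1 (log2FC 0.98, FDR = 0.0126) and without iPS WT replicate 3 (log2FC 0.69, FDR = 0.0513). ESC WT held 580, 579 and 569, at least 134-fold above MEF WT.

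Of the 4 claudins of simple epithelia 3 were called higher at D3, and with no earlier day sampled their order of onset cannot be read. Cldn3 rose the most at D3: 15.7, 6.06 and 15.9 in MEF WT against 1380, 1744 and 2307 at D3 (143-fold, FDR = 4.12e-60), with no further call until D7. Cldn4 rose in both steps, with 3.48, 22.7 and 15.9 in MEF WT, 238, 121 and 179 at D3 (12.4-fold, FDR = 2.46e-18) and 1507, 1849 and 1954 at D5 (9.85-fold, FDR = 5.72e-23). Cldn7 was at 1.74, 0 and 1.06 in MEF WT, 72.4, 39 and 67.8 at D3 (65.1-fold, FDR = 9.62e-08) and 783, 756 and 864 at D5 (13.4-fold, FDR = 1.67e-18). Cldn6, known from embryonic epithelium and pluripotent cells, first fell from 60.9, 54.5 and 53.1 to 21.1, 10.0 and 19.4 at D3 (3.33-fold, FDR = 0.0154) and then rose to 248, 208 and 273 at D5 (14.4-fold, FDR = 1.77e-07). The call of its fall was lost with edgeR (FDR = 0.0618) and without D3 WT replicate 2 (FDR = 0.0725).

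The same 4 claudins then parted in pluripotent cells. Cldn4 was at 2320, 1634 and 3061 in iPS WT against 2977, 3124 and 2944 at D7 (log2FC -0.37, FDR = 0.281), and Cldn6 at 425, 185 and 770 against 322, 437 and 489 (log2FC 0.15, FDR = 0.845). Cldn3 fell 30.9-fold to 44.9, 48.2 and 62.2 (FDR = 3.84e-44) and Cldn7 10.3-fold to 124, 62.9 and 175 (FDR = 4.91e-17). Per kilobase, Cldn12 led the claudins in MEF WT (408 ± 3.10), Cldn3 at D3 (1438 ± 371) and D5 (1653 ± 254), and Cldn4 at D7 (1660.2 ± 53.0), in iPS WT (1287 ± 393) and in ESC WT (1599 ± 79.3).

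Cldn3 and Cldn4 are neighbours on chromosome 5, Cldn4 ending at base 134946934 on the minus strand and Cldn3 beginning at base 134986214 on the plus strand, 39279 bases apart. Their promoters of 250 bases (RefSeq, GRCm38.p6) are shown because the pair shared its low level in MEFs and its rise at D3 and not its level in iPS. Capitals mark matches to the 4 motifs named above, on either strand: KLF-type and GC box matches for Cldn3, and for Cldn4 also 2 AP-1 matches, TGACTCA, a motif that among the other members with a promoter was found in Cldn15 and Krt13.
Cldn3, chr5:134985964-134986213, plus strand: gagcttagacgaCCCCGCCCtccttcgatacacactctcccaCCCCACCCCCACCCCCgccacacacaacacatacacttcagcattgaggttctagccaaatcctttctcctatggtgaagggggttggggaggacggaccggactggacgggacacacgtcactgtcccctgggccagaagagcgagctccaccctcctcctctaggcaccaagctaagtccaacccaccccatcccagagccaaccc
Cldn4, chr5:134946935-134947184, minus strand: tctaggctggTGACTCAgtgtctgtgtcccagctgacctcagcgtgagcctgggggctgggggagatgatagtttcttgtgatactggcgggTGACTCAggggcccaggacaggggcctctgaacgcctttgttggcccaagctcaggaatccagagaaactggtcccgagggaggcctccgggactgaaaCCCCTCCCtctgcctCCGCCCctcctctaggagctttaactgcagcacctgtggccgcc

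The 9 other claudins went separate ways. Cldn1, the claudin of the epidermal barrier, fell 23.9-fold from 247, 235 and 231 in MEF WT to 9.17, 9.0 and 11.6 at D3 (FDR = 2.74e-24) and had no WT mean above 13.9 afterwards, although keratins of epidermis rose in the same libraries. Both channel-forming claudins, Cldn2 and Cldn15, were called lower at D3, and so was Cldn11, the claudin of myelin and Sertoli cells (5.77-fold). Cldn23 rose from 1.74, 7.57 and 2.12 in MEF WT to 26.6, 26.0 and 23.3 at D3 (6.85-fold) and to 101, 158 and 173 at D5 (5.68-fold), and was at 0.864, 0 and 1.86 in iPS WT. Cldn9 rose from 2.75, 3.0 and 4.85 at D3 to 39.8, 47.5 and 45.8 at D5 (12.6-fold) and was called in none of the later steps up to ESC. Cldn12 was expressed at every stage, with WT means of 1725 in MEF, 1170 at D3, 997 at D5, 983 at D7, 840 in iPS and 821 in ESC. In the step from D7 to iPS the 2 claudins called higher were Cldn5, known from endothelium (from 0, 1.01 and 3.09 to 15.5, 25 and 27.8), and Cldn19 (from 1.01, 4.03 and 0 to 11.2, 8.61 and 7.42), both low, and the call of Cldn19 was lost in 7 of 11 alternatives, 5 of them with 1 library left out. Cldn2, Cldn5, Cldn9, Cldn11, Cldn15, Cldn19 and Cldn23 were named after their values were seen.

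**Figure D4:**
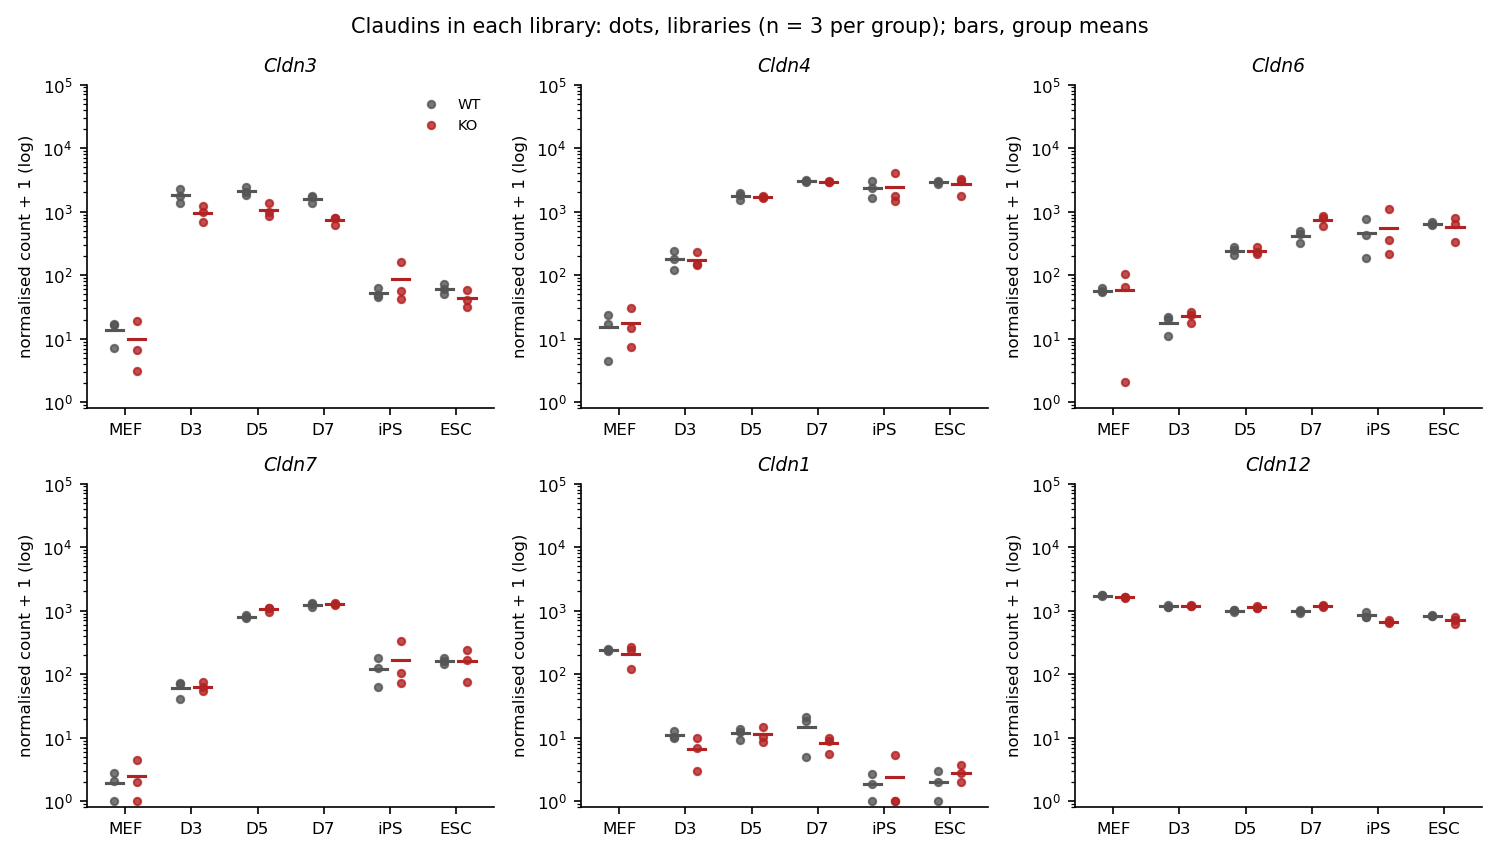
Normalised counts plus 1 (log axis) of 6 claudins by stage, each dot 1 library, grey for WT and red for KO, bars for group means (n = 3). Cldn3 was already at 1810 at D3 WT, Cldn4 reached 3015 at D7 WT and was at 2338 in iPS WT and 2903 in ESC WT, and Cldn1 was above 100 only in MEFs.

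Genes for proteins that anchor keratins and claudins were compared in the same steps. Of 11 desmosome and keratin-linker genes 8 were called, each higher, and of 14 tight junction partners 10, of which 8 were higher and 2 lower, in a step that called 44.9% of all genes. Dsp, desmoplakin, which ties keratin to desmosomes, went from a mean of 722 ± 14.9 in MEF WT to 47901 ± 4865 at D3 (log2FC 6.05, FDR = 3.05e-75), and Ocln, occludin, rose with a log2FC of 2.54 (FDR = 2.45e-14). Cgnl1, a cytoplasmic tight junction protein, fell with a log2FC of -5.44 (FDR = 1.45e-62). In the step to iPS all 11 linkers were called, 10 lower and 1 higher, against 45% of all genes. Of 7 measured keratinocyte markers outside the keratin family 6 had means of at least 10 in both MEF WT and D3 WT, with sums of 1278 to 1420 in MEF WT and 4373 to 5827 at D3. Flg, filaggrin, had no read in MEFs. The single partner and marker genes given here and below are examples chosen after their values were seen.

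iPS and ESC of the control genotype were close. DESeq2 called 0 of 39 members between iPS WT and ESC WT, edgeR also 0, and 4 had an unadjusted p below 0.05, against 0.275% of all genes called; 17 of 39 members had an FDR, the rest being too low. The widest of the 5 simple keratins was Krt7, at 3.45, 1.72 and 10.2 in iPS WT and 16.1, 15.2 and 11.3 in ESC WT (log2FC 1.48, 95% interval 0.11 to 2.85, FDR = 0.214). Without iPS WT replicate 3 the count was 3 (Krt7, Krt19 and Krt42). Between MEF WT and ESC WT, the start and the reference of the end, 23 members were called (9 higher and 14 lower) against 55.4% of all genes tested (26% higher, 29.4% lower). All 4 claudins of simple epithelia were higher in ESC, Cldn4 201-fold and Cldn7 177-fold, and 4 of 5 simple keratins were lower, Krt19 30.9-fold and Krt18 7.60-fold.

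Loss of Zfp266 was compared with control within each stage. In MEFs DESeq2 called 0 of 39 members, edgeR 0, and 2 had an unadjusted p below 0.05, against 0.019% of all genes called. MEF KO replicate 3 stood apart in the simple-epithelial genes that MEFs express. Krt8 was at 515 and 476 in the other MEF KO libraries and at 68.9 in this one, Krt18 at 2356, 2226 and 343, Krt19 at 2187, 2337 and 754, and Cldn6 at 103, 65.2 and 1.06. The junction gene Dsp was low there too, at 108 against 710 to 749 in the other MEF libraries. That library did not lack fibroblast markers (sum of 363881, the highest of the MEF libraries) or mesothelial ones (4676, within 4383 to 4933 for all 6). It had the lowest sums of the 6 MEF libraries for keratinocyte markers (846, against 1267 to 1420) and trophectoderm markers (201, against 256 to 321), and their part in its low keratins was not tested. Without it no member was called either, and the log2FC of Krt18 was 0.56 instead of 0.08 and that of Krt8 0.43 instead of -0.06. Without MEF KO replicate 2, Krt13 was called (log2FC -1.03, FDR = 0.0377).

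At D3 again 0 of 39 members were called by DESeq2 and 0 by edgeR, with 2 at an unadjusted p below 0.05 and 21 with an FDR, against 0.162% of all genes called. Cldn3 had the smallest p. It was at 1380, 1744 and 2307 in D3 WT and at 697, 997 and 1203 in D3 KO, so the groups did not overlap (log2FC -0.91, SE 0.33, FDR = 0.339). Krt8 differed little, 19112, 14919 and 20168 against 17905, 18211 and 21302 (log2FC 0.08, 95% interval -0.77 to 0.93). Krt14, Krt16 and Krt17 had log2FC of -0.06, -0.24 and 0.02, with overlapping libraries.

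By D5 8 members had an unadjusted p below 0.05, yet DESeq2 called 0 of 39 and edgeR 0, against 1.19% of all genes called (27 members had an FDR). Krt80 alone passed the FDR, against 7.15% of all genes tested, with a change too small to be called (log2FC -0.43, FDR = 0.0278). With a replicate block Krt80 did not pass, while Krt42 was called and Cldn3 and Krt5 passed the FDR, with values given in the last paragraph. The libraries of the genotypes did not overlap for 13 of 39 members, against 32.3% of all genes. Krt18 was at 130, 169 and 143 in WT and at 300, 361 and 323 in KO, a gap wider than the spread of either group (log2FC 1.16, SE 0.52, FDR = 0.185). Krt42 was at 19.4, 18.6 and 29.1 in WT and 38.1, 59.8 and 47.8 in KO (log2FC 1.12, SE 0.39, FDR = 0.0576). Cldn3 was at 1813, 1997 and 2435 in WT and 841, 968 and 1376 in KO (log2FC -0.97, SE 0.33, FDR = 0.0514). Fitted on the D5 libraries alone, which do not share the spread of the other stages, Krt18 (FDR = 1.13e-11), Krt42 and Krt1 were called. Without D5 KO replicate 3 Cldn3 was called (log2FC -1.20, FDR = 0.027).

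The largest number of calls between genotypes was at D7. DESeq2 called 11 of 39, 2 higher and 9 lower in KO, against 8.37% of all genes tested (3.95% higher, 4.42% lower), and edgeR called 10. The median log2FC was -0.57 over the members and -0.04 over all genes tested. The libraries of WT and KO did not overlap for 20 of 39 members, against 47.4% of all genes. By role, 1 of 5 simple keratins was called (Krt18, higher), 4 of 11 stratified keratins (Krt1, Krt2, Krt5 and Krt14, all lower), 1 of 5 hair keratins (Krt73, lower), 4 of 5 other keratins (Krt42 higher, Krt79, Krt87 and Krt90 lower) and 1 of 13 claudins (Cldn3, lower). At an FDR below 0.05 alone, 16 of 39 members passed (3 higher and 13 lower) against 29.4% of all genes tested, among them the stratified keratins Krt13 and Krt16 with log2FC of -0.76 and -0.72. Krt79, Krt87 and Krt90 were named after their values were seen.

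Krt18 had the largest rise. It was at 458, 616 and 548 in D7 WT and at 2093, 2322 and 1716 in D7 KO, 3.78-fold higher (log2FC 1.92, SE 0.51, FDR = 0.00133), and every KO library was above every WT library. Krt42 was at 99.4, 199 and 139 in WT and at 293, 431 and 379 in KO, 2.52-fold higher (log2FC 1.33, SE 0.34, FDR = 0.000678), again without overlap. Both genes also rose from D5 to D7 in WT. Krt8 did not pass: 38218, 35929 and 39874 in WT and 31766, 31472 and 31570 in KO (log2FC -0.27, 95% interval -1.12 to 0.58, FDR = 0.710). Its D7 libraries did not overlap, and in a fit on the D7 libraries alone the same difference had an FDR of 0.000139 (log2FC -0.23). The Krt8 level per kilobase was therefore 52.4 ± 9.23 times that of Krt18 in D7 WT and 11.5 ± 1.81 times in D7 KO, and at D5 it was 235 ± 31.8 times in WT and 109 ± 11.7 times in KO, the ranges of the genotypes not overlapping on either day.

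Among the stratified keratins the basal pair fell. Krt5 was at 258, 394 and 426 in WT and at 153, 123 and 155 in KO, 2.50-fold lower (log2FC -1.32, SE 0.29, FDR = 4.19e-05), with no overlap. Krt14 was at 4243, 8346 and 9556 in WT and at 2463, 4145 and 4164 in KO, 2.06-fold lower (log2FC -1.04, SE 0.38, FDR = 0.0249), and the groups were separated only by the gap between 4164 and 4243. Krt1, of the suprabasal layers, was at 72, 196 and 56.6 in WT and at 38.2, 15.8 and 11.8 in KO, 4.97-fold lower (log2FC -2.31, SE 0.62, FDR = 0.00142). Its type I partner Krt10 differed little, 27.4, 32.2 and 29.8 against 30.1, 33.3 and 28.1 (log2FC 0.03, 95% interval -0.54 to 0.61). Krt17 was at 11213, 17659 and 19109 in WT and at 8770, 11415 and 11891 in KO and did not pass the test (log2FC -0.58, FDR = 0.287). Krt15 was low in both (log2FC -0.21, FDR = 0.860).

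Krt73, a keratin of the inner root sheath of hair, was at 27.4, 28.2 and 47.3 in WT and at 3.01, 19.3 and 9.99 in KO (log2FC -1.65, SE 0.52, FDR = 0.00757). The calls of Krt2, Krt79, Krt87 and Krt90 rest on levels of 0.875 to 1166 normalised counts, and Krt90 overlapped between genotypes (423, 1166 and 869 against 244, 450 and 335). The keratin total per kilobase was 41585 ± 5759 in D7 WT and 31538 ± 2009 in D7 KO, with the simple share at 53.2% ± 6.49 and 61.7% ± 3.79. The WT and KO libraries did not overlap in the total, and they did in the simple share. D7 WT replicate 1 had the highest simple share of its group (60.7%, against 48.6% and 50.4%) and the lowest Krt14, and without it 9 members were called.

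Claudins of simple epithelia showed 3 outcomes at D7. Cldn3 was at 1755, 1357 and 1681 in WT and at 778, 607 and 795 in KO, 2.20-fold lower (log2FC -1.14, SE 0.33, FDR = 0.00397), with no overlap, as at D3 and D5. Cldn4 and Cldn7 differed little: 2977, 3124 and 2944 against 2978, 2963 and 2914 for Cldn4 (log2FC -0.03, 95% interval -0.64 to 0.58) and 1148, 1275 and 1302 against 1238, 1282 and 1328 for Cldn7 (log2FC 0.05, 95% interval -0.71 to 0.81). Cldn6 was at 322, 437 and 489 in WT and at 590, 797 and 862 in KO, without overlap (log2FC 0.85, SE 0.63, FDR = 0.341; FDR = 3.39e-07 in the fit on D7 libraries alone). Cldn1 was at 20.3, 4.03 and 17.5 in WT and at 8.03, 8.75 and 4.54 in KO (log2FC -0.97, FDR = 0.153).

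None of the 25 partner genes was called at D7 by DESeq2 or edgeR, and 10 had an unadjusted p below 0.05, as had 7967 of all 21020 genes tested. Of 11 linkers 4 had an FDR below 0.05, with Dsc2 (log2FC -0.93), Evpl (-0.78) and Pkp1 (-0.73) lower and Dsg2 (0.63) higher, and of 14 tight junction partners 4, all higher, with log2FC of 0.36 to 0.86, against the 29.4% of all genes that passed this FDR. Marker sums of other states moved with the D7 genotypes. The sum of 7 pluripotency markers was 7211 to 11174 in D7 WT and 29325 to 37185 in D7 KO, that of 7 fibroblast markers 17813 to 25152 and 5604 to 15738, and that of 7 keratinocyte markers 4628 to 5424 and 3496 to 4193. The sum of 5 trophectoderm markers was 692 to 954 in D7 WT and 1437 to 1929 in D7 KO, and it was 1661 to 1828 in ESC WT. None of these 4 sums overlapped between the D7 genotypes. The sums of endoderm markers (554 to 843 in D7 WT, 653 to 721 in D7 KO) and of mesothelial markers (3715 to 6748 and 4562 to 5385) did overlap. All 7 genes of the first 2 lists had a mean of at least 10 in both groups, as had 6 of 7 keratinocyte and 4 of 5 trophectoderm markers. Their part in the keratin and claudin differences was not tested.

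Of the 11 calls at D7, those of Krt5, Krt18, Krt42 and Cldn3 were kept in all 11 alternatives, which were another count model, TMM scaling, a filter on low counts, a replicate block, a fit on the D7 libraries alone and each library left out in turn. The call of Krt1 was lost in 1 (without D7 WT replicate 2), those of Krt2, Krt73 and Krt90 in 2, Krt14 in 4, Krt79 in 5 and Krt87 in 8. Without D7 KO replicate 1, 5 members were called, and without D7 WT replicate 2, 6.

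**Figure D5:**
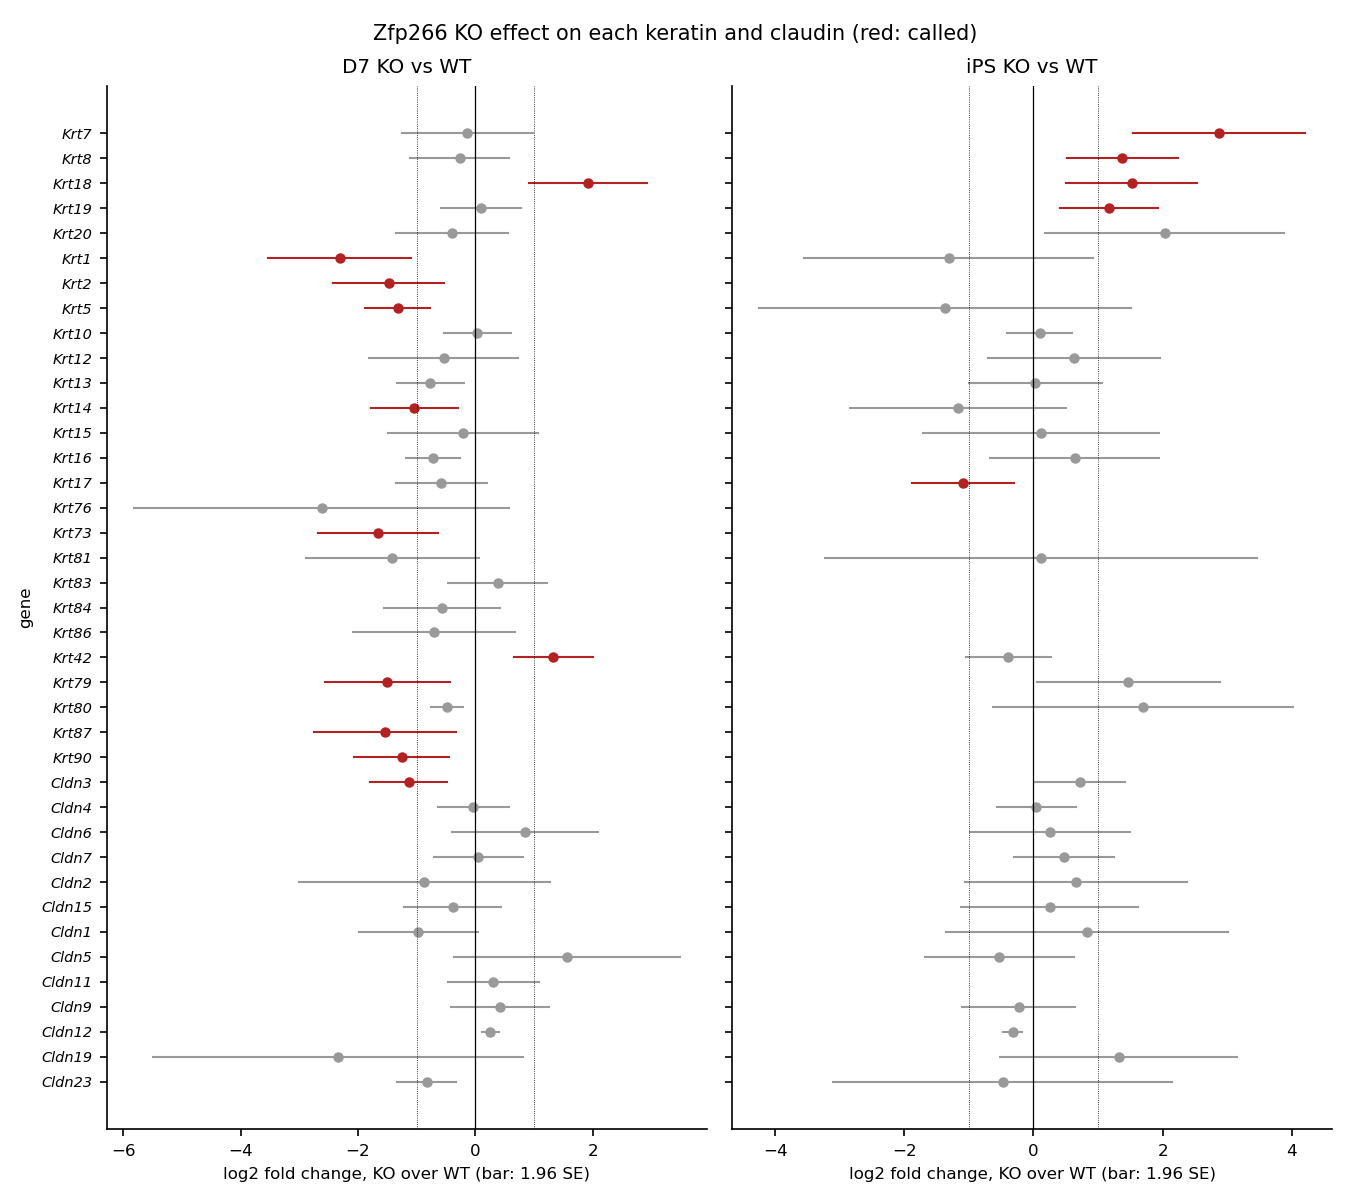
Log2 fold change of KO over WT for the members, at D7 (left) and in iPS (right), with bars for the 95% interval and red for called members; members with no read in one of the groups are left blank, and dotted lines mark a log2FC of 1 in either direction. Krt18 and Krt42 were to the right at D7 and Krt1, Krt5, Krt14 and Cldn3 to the left, and in iPS the simple keratins Krt7, Krt8, Krt18 and Krt19 were to the right.

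In iPS clones DESeq2 called 5 of 39 members, 4 higher and 1 lower in KO, against 4.51% of all genes tested (3.95% higher, 0.557% lower). The median log2FC was 0.11 over the members and 0.02 over all genes tested. The 4 higher were simple keratins, and for Krt7, Krt8 and Krt18 KO replicate 3 was far above the other clones. Krt8 was at 132, 123 and 193 in iPS WT and at 235, 115 and 815 in iPS KO (log2FC 1.38, SE 0.44, FDR = 0.0156). Krt18 was at 148, 87.0 and 173 in WT and at 207, 109 and 851 in KO (log2FC 1.52, SE 0.52, FDR = 0.0258). Krt7 was at 3.45, 1.72 and 10.2 in WT and at 22.0, 0.868 and 88.9 in KO (log2FC 2.87, SE 0.68, FDR = 0.000582). For each of them KO replicate 3 was the highest library and KO replicate 2 the lowest of KO, below the WT range or within it. Krt19 was at 11.2, 25.8 and 61.2 in WT and at 89.8, 28.6 and 102 in KO, with 2 KO clones above the WT range (log2FC 1.17, SE 0.39, FDR = 0.0208).

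Krt17, the 1 member called lower, was at 347, 148 and 392 in WT and at 53.9, 175 and 186 in KO (log2FC -1.10, SE 0.40, FDR = 0.0425). Only Cldn12 of the 39 members did not overlap between the genotypes, against 19.6% of all genes. The Krt17 call was lost without iPS WT replicate 1 (FDR = 0.128), iPS WT replicate 3 (FDR = 0.207) or iPS KO replicate 1 (log2FC -0.71, FDR = 0.262). Without iPS KO replicate 3 only Krt17 was called (log2FC -1.36, FDR = 0.0201), and Krt8 had a log2FC of 0.22 (FDR = 0.816), Krt18 0.22 (FDR = 0.834), Krt7 1.13 (FDR = 0.175) and Krt19 0.85 (FDR = 0.213). Without iPS WT replicate 1 or iPS KO replicate 1, 3 members were called, and without iPS WT replicate 2, 2. Fitted on the iPS libraries alone, 0 of 39 were called. The sum of 5 trophectoderm markers was 518, 908 and 1695 in the KO clones and 588, 531 and 2009 in the WT clones, with Elf5 at 0, and the sum of 6 endoderm markers was 630, 114 and 99.0 in KO and 147, 120 and 83.5 in WT. Their part in the keratin values was not tested.

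ESC KO did not differ from ESC WT by a call. DESeq2 and edgeR each called 0 of 39 members, 2 had an unadjusted p below 0.05 and 25 an FDR, against 1.21% of all genes called. Krt8 was at 147, 179 and 235 in WT and 233, 314 and 199 in KO (log2FC 0.41, 95% interval -0.45 to 1.27), and Krt18 at 182, 219 and 215 against 229, 361 and 262, without overlap (log2FC 0.47, 95% interval -0.54 to 1.49). Cldn4 was at 2749, 3035 and 2926 in WT and 1759, 3004 and 3269 in KO (log2FC -0.12, 95% interval -0.73 to 0.49). Krt42 was at 580, 579 and 569 in WT and 293, 457 and 581 in KO (log2FC -0.38, FDR = 0.536).

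Whether the effect of the knockout itself differed between stages was tested as an interaction. Between D7 and D3 DESeq2 called 1 of 27 members with an FDR, Krt5, against 4.12% of all genes called. Its log2FC was -0.14 at D3 and -1.32 at D7, a difference of -1.18 (SE 0.40, FDR = 0.0316). In D3 KO it was at 196, 200 and 229 against 268, 118 and 302 in WT, within the WT range. By edgeR it was not called (FDR = 0.059), and the call was lost in 6 of 12 fits that left out 1 library (D3 WT replicate 2, D3 KO replicate 2 or 3, D7 WT replicate 2 or 3, or D7 KO replicate 2), while without D7 WT replicate 1 Krt14 was called as well (-1.25, FDR = 0.0205). For Krt18 the difference of effects was 1.45 (SE 0.74, FDR = 0.199), and it was called in the fit on the D3 and D7 libraries alone (log2FC 1.5, FDR = 9.07e-08). For Krt42 the difference was 1.52 (SE 0.71, FDR = 0.151) and for Cldn3 -0.23 (95% interval -1.16 to 0.70), neither past the threshold. Between iPS and ESC 0 of 24 members with an FDR were called by DESeq2, 0 by edgeR and 2 had an unadjusted p below 0.05, against 0.59% of all genes called. Those were Krt19 (difference 1.5, FDR = 0.151) and Cldn3 (1.23, FDR = 0.254). Without iPS KO replicate 2 the count was 3, and without iPS WT replicate 3 it was 1.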

How the data were processed

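Per the labels and methods, the authors made stranded mRNA libraries, trimmed reads with Cutadapt, joined the runs of a sample, aligned with STAR to GRCm38.p6 and counted reads per gene with Rsubread. The strand setting, the annotation release and the versions of Cutadapt, STAR and Rsubread are not given in the sources used here. They deposited raw counts and a second signal, counts divided by DESeq2 size factors (normalised counts). Their batch-corrected log matrix and their tables of fold changes and p-values were not used.

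Here DESeq2 1.42.0 (R 4.3.3) was fitted to the deposited counts of all 21442 genes in 36 libraries as 1 factor of 12 groups, and FDRs were adjusted over all genes. edgeR 4.0.16 quasi-likelihood, TMM scaling, a filter (at least 10 reads in 3 libraries), a replicate block, fits on the compared groups alone and leaving out each library were alternatives. Both tools were tested on simulated counts.

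Genes were named by role and by rank of change, and others after their values were seen. Members and lists were chosen with earlier results of these data known. Same-numbered WT and KO libraries deviated together at D3 (r of 0.101 to 0.456 over 14637 genes), D5 (0.0897 to 0.268) and D7 (0.172 to 0.392). The replicate block left the counts of 0 members at D3 and 11 at D7 unchanged, and it changed the calls at D5 as given below. Intervals are 95% and cover counting error or library spread only.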

Additional observations from a re-analysis of the deposited data

Results flagged for a closer look

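For Krt5, the type II keratin of basal epidermis, the knockout effect was called different between stages in a test of the difference itself over all 36 libraries. No other member with an FDR was called, so the share of members called was no higher than the 4.12% of all genes that the test called. The differences of Krt18 and Krt42, given above, were larger in size but were not called. The interaction of genotype and stage was -1.18 on the log2 scale (SE 0.40, FDR = 0.0316, DESeq2) between D7, where Krt5 was lower in all 3 KO libraries than in every WT library, and D3, where it was not. The edgeR test of the same difference gave an FDR of 0.059, and the call was lost in 6 of 12 fits with 1 library left out. In the fit on the D3 and D7 libraries alone Krt18 was called too (1.5, FDR = 9.07e-08), and without D7 WT replicate 1 Krt14 was (-1.25, FDR = 0.0205).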

How the results depend on the processing

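No value of a named member changed its direction among called results under any alternative. For D5 KO against WT, 0 members were called, 1 with the replicate block and 3 in the fit on the D5 libraries alone. For iPS KO against WT, 5 were called and 0 in the fit on the iPS libraries alone. The difference of KO effects between D7 and D3 called 1 member, 0 with edgeR and 2 in the fit on the groups compared alone. The causes were not tested. TMM scaling and the low-count filter left every count within 1.5 times.

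With 1 library left out, the members called ranged from 0 to 1 for KO against WT in MEF (1 without MEF KO replicate 2) and at D5 (1 without D5 KO replicate 3), from 5 to 10 at D7 and from 1 to 6 in iPS. They ranged from 4 to 7 for D7 against D5, from 0 to 3 for ESC against iPS, from 0 to 2 for the difference of KO effects between D7 and D3 and from 0 to 3 for that between iPS and ESC.

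At MEF, iPS and ESC the libraries of the genotypes share only a replicate number, with correlations of their deviations of -0.142 to 0.259. At D5 same-numbered libraries deviated together (r of 0.0897 to 0.268), as at D3 and D7. With the replicate block at D5 Krt42 was called (FDR = 0.0228), Cldn3 (log2FC -0.99, FDR = 0.00245) and Krt5 (FDR = 0.0343) passed the FDR without the fold, and Krt80 no longer did (FDR = 0.155). The block called 1 member at D5 and 4 in iPS, where the call of Krt8 was lost (FDR = 0.0508), and changed no other count by more than 1.5 times. Genes with a few reads a library, such as Krt87, are limited by depth.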
